A study of Drosophila melanogaster with 2 samples.

Results

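The insulin and TOR pathway genes examined here were ImpL2, InR, chico, Pi3K92E, Akt, foxo, Thor, Tor and S6k, which are 9 of the 13945 protein-coding genes on the main chromosome arms of Drosophila melanogaster. Each gene was taken with its body in the annotation and 10 kb to each side, and every peak summit of the sisA-eGFP protein in that window was listed. The genes were chosen from earlier results of these same peaks, that is, from the positions and signals of the summits described below. Which of them have summits is therefore a description, and no test was run on it.

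The data are ChIP-seq peak lists of a single group of embryos: flies of the strain sisA-GFP, whose transgene makes a fusion of sisA with eGFP, sampled as whole embryos of mixed age from 0 to 18 h. There were 2 biological replicates from the same fly line, both from chromatin sonicated to 200 to 800 bp, and embryo sex was not collected. The labels describe the antibody as one against GFP but list sisA in the antibody field. It was taken here as anti-GFP, and with an antibody to sisA itself any unfused protein would be precipitated too. The labels do not say which promoter drives the fusion, whether unfused sisA was also present, or whether the replicates came from separate cultures. No untagged, input or other control library was used here, the depth of the libraries is unknown, and in whole embryos strong binding in few cells and weak binding in many cannot be told apart.

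The sisA protein is a bZIP transcription factor encoded on the X chromosome, best known as an X-linked signal element that helps to switch on Sex-lethal in female embryos. The insulin pathway of the fly starts with insulin-like peptides, which the secreted protein ImpL2 binds and antagonises. The peptides activate the receptor InR, which signals through the adaptor chico and the phosphoinositide 3-kinase subunit Pi3K92E to the kinase Akt. Akt keeps the transcription factor foxo out of the nucleus, and foxo is known to activate InR and Thor when insulin signalling is low. The kinase Tor senses nutrients, activates the ribosomal protein kinase S6k and holds in check Thor, the fly 4E-BP, which represses translation.

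The bases under the strongest summit of ImpL2, foxo, Tor, Akt and InR are shown because those genes had the highest maximum signals in their windows. Each run is the plus strand of the RefSeq Release 6 genome, which is dm6, with the summit at position 51 and 50 bases to each side. Capitals mark the word GAGAG, the core of GAGA sites, and none of the other listed words below was found in these 5 runs. The summit of Pi3K92E lies in an annotated UTR and its bases are not shown. The positions are chr3L:4228324-4228424 for ImpL2, chr3R:14053543-14053643 for foxo, chr2L:13004185-13004285 for Tor, chr3R:16097802-16097902 for Akt and chr3R:21590777-21590877 for InR.
ImpL2: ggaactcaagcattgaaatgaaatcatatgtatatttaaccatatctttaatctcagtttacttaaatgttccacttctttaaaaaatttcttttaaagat
foxo: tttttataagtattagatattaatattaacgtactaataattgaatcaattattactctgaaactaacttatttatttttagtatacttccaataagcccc
Tor: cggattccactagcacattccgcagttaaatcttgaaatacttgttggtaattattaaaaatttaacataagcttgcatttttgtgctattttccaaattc
Akt: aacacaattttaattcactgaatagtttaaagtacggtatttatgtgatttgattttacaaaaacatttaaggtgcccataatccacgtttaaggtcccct
InR: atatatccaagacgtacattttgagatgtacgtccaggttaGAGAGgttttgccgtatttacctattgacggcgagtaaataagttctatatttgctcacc

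Among the short runs shown, those of foxo and ImpL2 were rich in A and T. Their G and C content was 20.8% and 23.8%, against a median of 32.7% over the runs at all 5133 summits of the list and 43.6% over runs taken 500 bp to the right of the same summits. Of all summit runs, 4.38% were as low as that of foxo and 11.0% as low as that of ImpL2. The median over the 500 strongest summits of the list was 29.7%. The low content was limited to the bases near the summit. Over 201 bases both summits held 37.8%, above the median of 35.8% over all summits. The Tor and Akt runs each held 30.7% and the InR run 38.6%, which is above the median of the list.

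Peaks of the conservative list, the set that the authors thresholded by the irreproducible discovery rate (IDR) on both replicates, had a summit in the windows of 8 of the 9 genes. The exception was chico. Over all protein-coding genes, 63.9% had a summit in a window drawn the same way, and the share rose with window length: 60.6% of genes with windows under 25 kb, 71.6% at 25 to 35 kb and 77.2% above 35 kb. ImpL2, Pi3K92E, Akt, Tor and S6k had windows of the middle length class, InR and foxo of the longest, and chico and Thor of the shortest. A summit within 10 kb is thus common in this list, and the count of 8 was not read as a property of the pathway.

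A summit within 1000 bp of an annotated transcription start site (TSS) was rarer in the genome, at 21.1% of protein-coding genes, and was found at 6 of the 9 genes: InR, Pi3K92E, Akt, foxo, Thor and Tor. At 5 of these 6 the summit lay upstream of the nearest TSS, and the share upstream among TSS summits of all genes was not computed. ImpL2 fell just outside the limit, with its nearest summit 1072 bp from a TSS, while S6k was 9375 bp and chico 46056 bp away. The median distance over all protein-coding genes was 7026 bp.

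The 9 windows held 28 summits. Of these, 6 lay within 1000 bp of a TSS of the gene, 6 in an intron, 12 in the upstream flank and 4 in the downstream flank. Only 14 of the 28, in 6 of the genes, were at least as close to a TSS of the named gene as to that of any neighbour. These include the 2 intronic summits of ImpL2, which are equally close to a second gene that starts at the same base. The other 14 were nearer to a neighbouring gene, including both summits of Tor and both of S6k. The map of the windows marks the 14 summits of each kind.

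**Figure D1:**
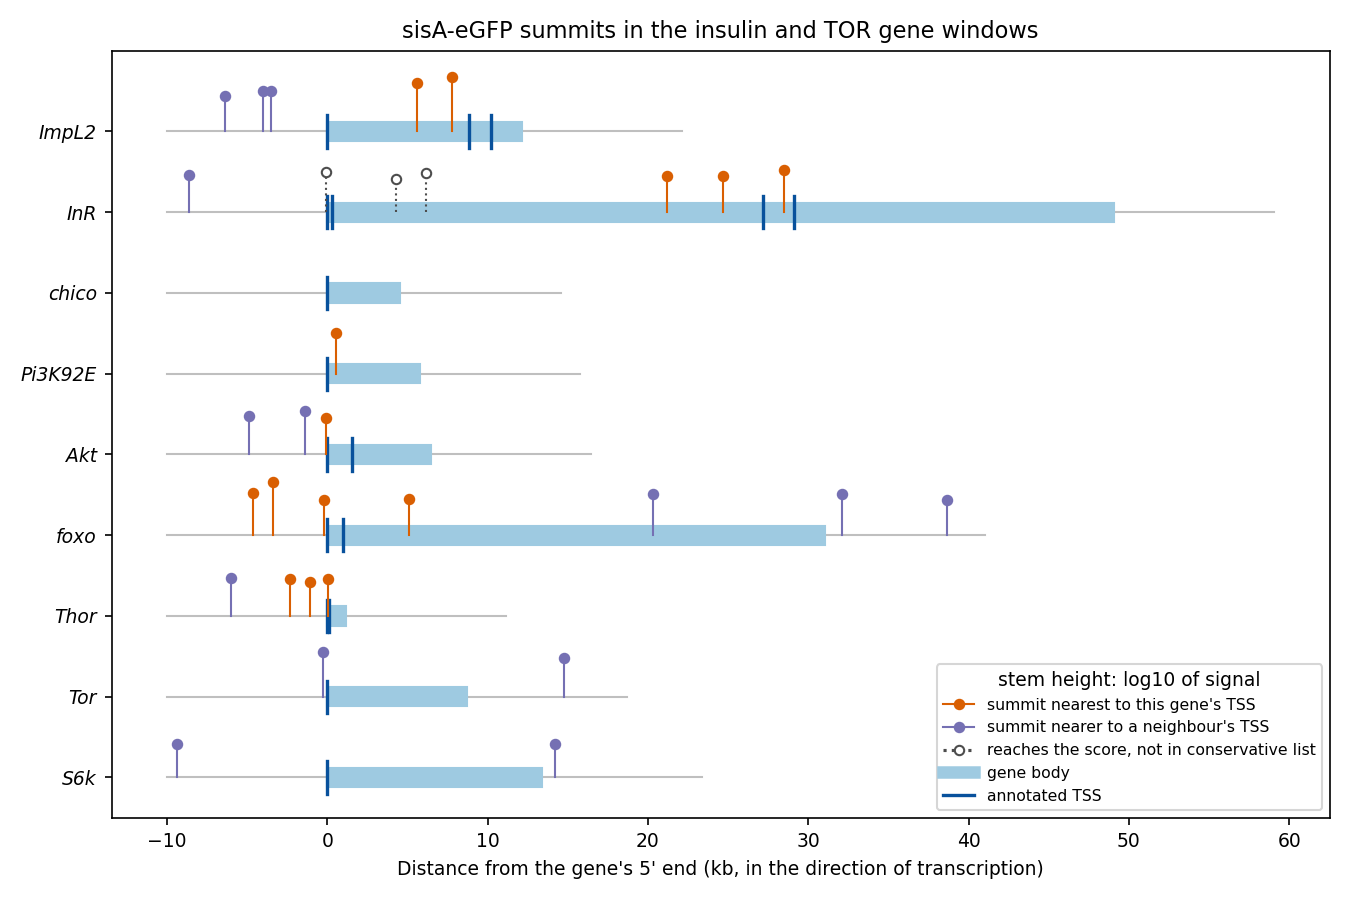
Position of each sisA-eGFP summit (stems) along the 9 gene windows, in kb from the gene's 5′ end in the direction of transcription; stem height is log10 of the peak signal, boxes are gene bodies and dark bars annotated TSSs. Orange stems are nearest to the gene's own TSS and purple ones nearer to a neighbour's. The TSS nearest to the orange stems of ImpL2 is shared with a second gene. The 3 dotted stems at InR are ranked peaks that reach the score of 830 but are not in the conservative list.

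The signal of a peak, the value the authors' peak caller gave it with no stated normalisation, had a median of 125 over the 28 summits, with quartiles of 95.4 and 186. The median over the conservative list was 127, with quartiles of 85.9 and 219, so 14 of the 28 lay above the list's median and 14 below it. Both intronic summits of ImpL2 and the upstream summit of foxo were the 3 with signals over 400, a further 4 summits lay between 200 and 300, and the remaining 21 were lower. Only 1.67% of the list had a higher signal than the strongest ImpL2 summit, and 2.06% a higher signal than that of foxo.

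ImpL2 encodes the secreted antagonist of insulin-like peptides (FBgn0001257, chr3L:4224006-4236147, minus strand). It had 5 summits in its window, and 4.99% of genes in the same length class had as many or more. The strongest, at position 4228374, had a signal of 955 and was rank 87 of the list. It had a signal of 533 in the list of replicate 1 and 423 in that of replicate 2. This summit lay in an intron, 1072 bp upstream of a TSS at 4227302. The annotation starts a second coding gene, CG46460, at the same base, so this TSS does not belong to ImpL2 alone. A second intronic summit at 4230519, 3217 bp upstream of the same TSS, had a signal of 479, with 244 in replicate 1 and 234 in replicate 2. Both were high in both replicates. The 3 remaining summits were in the upstream flank and belonged by distance to other genes: 4239673 with a signal of 179 and 4240177 with 166 flank the TSS of Sqor, and 4242527 with 91.9 was 207 bp upstream of pav. The last of these was in neither replicate's thresholded list. At the 5′-most TSS of ImpL2, at 4236147, the nearest peak before thresholding lay 256 bp upstream with a signal of 49.0 and a score of 243, far under the score of 830 that all thresholded peaks reach.

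InR, the insulin receptor (FBgn0283499, chr3R:21570248-21619321, minus strand), has 4 annotated TSSs in 2 pairs. The strongest of its 4 conservative summits, at 21590827, had a signal of 200, with 105 in replicate 1 and 94.8 in replicate 2. It was 636 bp upstream of the most internal TSS, at 21590191, inside the gene. A pair of weaker intronic summits lay 2511 and 6011 bp upstream of the second internal TSS, with signals of 94.3 and 98.8. Both were in the thresholded list of replicate 1 and not in that of replicate 2, where their ranked peaks had 52.8 and 43.4. The summit at 21627946 in the upstream flank, with a signal of 111, lay inside E2f1, a cell cycle transcription factor gene, and had 80.3 in replicate 1 and 31.1 in replicate 2. It was thresholded in replicate 1 only.

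At the 5′ promoter of InR the lists differ. A peak whose summit at 21619408 lay 87 bp upstream of the TSS at 21619321 had a signal of 169 and a score of 1000 in the ranked list of both replicates. Its ranked signals were 77.3 in replicate 1 and 100.9 in replicate 2. It is in none of the thresholded lists, conservative, longer or per replicate, although its score passes 830. The longer list does add an InR summit, but another one, at 21622948, 3627 bp upstream of the 5′ TSS with a signal of 59.1. The same holds for InR intronic peaks at 21613162, with a signal of 146, and at 21615046, with a signal of 68.3. They belong to 217 ranked peaks that reach the score and are not in the conservative list, and no source used here gives the step that left them out. With these peaks put back, InR has 7 summits in place of 4, and the count of genes with a summit within 1000 bp of a TSS stays at 6.

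The adaptor gene chico, whose product couples InR to the phosphoinositide 3-kinase, had no summit (FBgn0024248, chr2L:10242512-10247078, minus strand). It also had no peak of any rank in its window, where genes in windows under 25 kb had a median of 25. Only 533 protein-coding genes, 3.82% of the total, had no ranked peak in their window. The ranked list from both replicates holds no peak between the summits at 10201905 and 10303877, a stretch of 102 kb with 32 protein-coding genes, among them REPTOR-BP of the wider pathway. The median spacing of ranked summits on this arm was 672 bp. The ranked lists of the single replicates were empty there over 67.4 kb and 86.1 kb. The absence of peaks at chico thus spans its neighbours as well and does not single out the gene. Whether reads could be placed in this stretch was not tested.

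Pi3K92E encodes the catalytic subunit of the kinase (FBgn0015279, chr3R:20628972-20634732, minus strand) and had 1 summit, at 20634182. The signal was 182, with 98.5 in replicate 1 and 85.4 in replicate 2, and the summit lay 550 bp downstream of its single TSS, in an annotated 5′ UTR. It was the only TSS summit of the 9 genes that lay downstream of every annotated TSS. Both replicates had it in their thresholded lists. Of genes in the same length class, 71.6% had at least 1 summit.

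Akt, the kinase that relays the signal to foxo and to growth (FBgn0010379, chr3R:16099228-16105670, plus strand), had 3 summits, all upstream. The promoter summit at 16099157, 71 bp upstream of the TSS, was the weakest with a signal of 98.6. It had 53.6 in replicate 1, and 44.3 in replicate 2, where it was not thresholded. A stronger summit at 16097852 had a signal of 259, with 136 and 120 in replicates 1 and 2, and lay 1376 bp upstream of Akt and inside the gene Mhcl, 909 bp downstream of a TSS of Mhcl. The summit at 16094334, with a signal of 128, was 184 bp upstream of another annotated TSS of Mhcl. Both stronger summits were in the thresholded lists of both replicates, and both were nearer to Mhcl, a myosin heavy chain-like gene, than to Akt.

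The gene foxo, the transcription factor that Akt restrains (FBgn0038197, chr3R:14056945-14087978, plus strand), had 7 summits, the most of the 9 genes. Of genes with windows over 35 kb, 7.21% had as many or more. The strongest at 14053593 lay 3352 bp upstream of the 5′ TSS with a signal of 862 (rank 108). Replicate 1 gave it 475 (rank 113) and replicate 2 gave it 385 (rank 118), so its rank was close to the same in the pooled list and in each replicate. A second upstream summit at 14052346, 4599 bp from the TSS, had 204, with 94.8 in replicate 1 and 114.8 in replicate 2. The summit at the TSS was weak: 192 bp upstream, with a signal of 83.5, a score of 899, and a thresholded peak in replicate 1 alone. The intronic summit at 14062069, with a signal of 95.7, was likewise thresholded in replicate 1 alone. A second intronic summit at 14077243, with a signal of 182, was in both lists, 19324 bp past the nearest foxo TSS. This summit was nearer to Npc2b, 12274 bp upstream of that gene. Downstream of foxo, the summit at 14089024 with a signal of 176 lay 493 bp upstream of Npc2b, and that at 14095593 with 82.9 lay inside CCHa1. The latter had no ranked peak within 100 bp in replicate 1.

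Thor encodes the translational repressor 4E-BP, a known target of foxo (FBgn0261560, chr2L:3478434-3479612, plus strand). It had 4 summits around a gene of only 1.18 kb, and 5.31% of genes with windows under 25 kb had as many or more. All 4 were below the median signal of the list. The summit at 3478483 lay between the annotated TSSs, 49 bp after that at 3478434 and 39 bp before that at 3478522. Its signal was 109, with 69.4 in replicate 1 and 40.1 in replicate 2, and it was thresholded in both. Upstream summits at 3477386 and 3476086, which were 1048 and 2348 bp from the 5′ TSS, had 76.4 and 107. The summit at 3472450, with a signal of 121, was 153 bp upstream of Pgant4.

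Tor, the kinase at the centre of nutrient sensing, is named mTor in the annotation (FBgn0021796, chr2L:13004480-13013197, plus strand) and is not the receptor gene torso. Its strongest summit at 13004235 had a signal of 286, the highest of the 6 summits within 1000 bp of a TSS of these genes. Replicate 1 gave it 158 and replicate 2 gave it 143. It lay 245 bp upstream of Tor and 128 bp upstream of Vha68-1, a proton pump subunit gene transcribed the other way, so it cannot be assigned to either gene by position. The other summit of the window, at 13019226 with a signal of 135, was 79 bp upstream of a TSS of Ube4B. It was thresholded in replicate 2, with 59.5, and not in replicate 1, where its ranked peak had 76.3.

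S6k, the kinase that Tor activates (FBgn0283472, chr3L:5797549-5810931, minus strand), had 2 summits and the weakest of the 8 genes. Their signals were 70.6 at 5796745, which is 202 bp upstream of Tektin-C, and 71.0 at 5820306, inside the gene vn. Neither was close to the S6k TSS. The first was thresholded in replicate 1 alone and the second, with a score of 860, in neither replicate. An intronic peak at 5809447, 1484 bp past the TSS, had a signal of 77.5. Its score in the ranked list was 823, just under the limit. The longer thresholded list does hold this intronic peak, there with a score of 1000. It still counts 2 summits for S6k, so it does not hold both of the conservative ones. On the other side of the limit the lowest scores of the 9 windows were the 860 of S6k and the 899 of the foxo promoter summit, and a foxo intronic peak with 826 was just below.

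Of the 28 summits, 23 had a thresholded summit within 100 bp in replicate 1 and 19 in replicate 2. Both replicates had 16 of them, which is 57.1% of the 28, against 57.5% over the whole conservative list. A single replicate had 10 and neither had 2, the summits at 4242527 near ImpL2 and at 5820306 near S6k. All 16 had a signal of at least 107, and the others ranged from 70.6 to 135. In the ranked lists before thresholding, 27 of the 28 were found in both replicates. The conservative list was thresholded on both replicates, so this count follows largely from how the 28 were selected. The same share over the whole list was not computed. The median distance of the matched ranked summits from the pooled summit was 7 bp in replicate 1 and 12.5 bp in replicate 2. Across these 27 summits, which are not independent replicates, Spearman's rho between the replicates' signals was 0.847. The pooled signal draws on the same 2 libraries, so it is not separate support. The plot of replicate signals shows the summits in gene order.

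**Figure D2:**
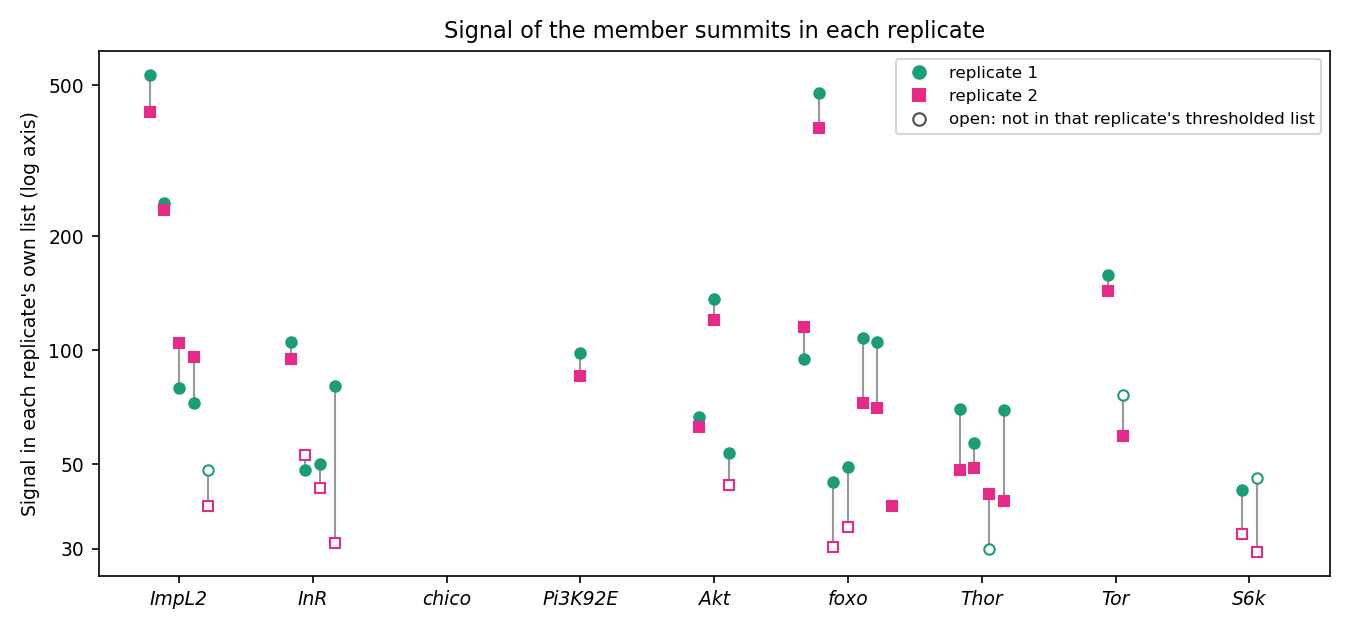
Signal of each summit in the list of replicate 1 (green circles) and replicate 2 (pink squares) on a log axis, with a grey line joining the 2 values of a summit; open symbols are ranked peaks not in that replicate's thresholded list. The lists carry no stated normalisation, so order within a replicate is comparable and levels between them are not. The strongest ImpL2 summit (533 and 423) and the upstream foxo summit (475 and 385) stand apart in both, and chico has none.

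Against genes in windows of like length, the numbers of summits at ImpL2, foxo and Thor were in the upper tail and those of Pi3K92E, Tor and S6k were near the middle. The median was 1 summit for windows under 25 kb and for those of 25 to 35 kb, and 2 summits above 35 kb. InR with 4 was matched or passed by 25.8% of its class and Akt with 3 by 23.6%. Tor and S6k, with 2 each, were matched or passed by 45.9%. Windows share summits with neighbouring genes, so a count per window is not a count of sites acting on the gene.

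**Figure D3:**
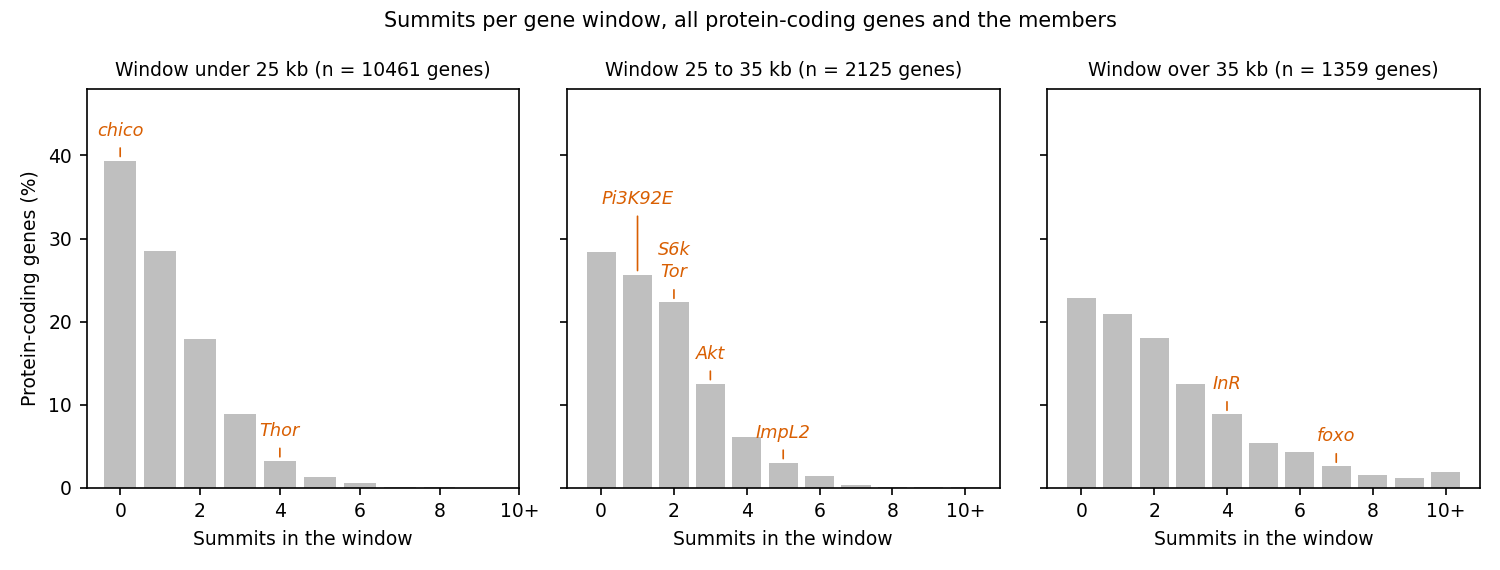
Share of protein-coding genes (%, bars) by the number of conservative summits in the gene body and 10 kb to each side, for windows under 25 kb, 25 to 35 kb and over 35 kb; labels mark the bar in which each of the 9 genes falls. ImpL2 (5 summits), Thor (4) and foxo (7) sit in the thin right-hand tails, and chico is in the bar at 0.

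Short sequence words were counted within 100 bp of each summit on both strands. GAGAG was found at 6 of the 28 summits (21.4%), in the windows of ImpL2, InR, Akt, foxo and Thor, against 21.8% of all summits and 1284 of 5133 windows taken 500 bp away. The promoter element DRE (TATCGATA), the E-box CACGTG, and the bZIP words TGACGTCA (CRE), TGACTCA (AP-1) and TTGCGCAA (C/EBP) were found at none of the 28. Those words were rare in the whole list too, at 2.36%, 1.79%, 0.273%, 1.64% and 0.234% of its summits. In windows 500 bp away they were at 0.545%, 2.51%, 0.409%, 1.87% and 0.409%, so of these only DRE was more frequent at summits. GGTCACAC, known as Motif 1, was at 1 summit, that near Ube4B, and the Zelda word CAGGTAG at 1, that inside E2f1. The shares of these words over the list were 1.56% and 0.877%, and over windows 500 bp away 0.468% and 1.01%.

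Further words were picked after the data were seen because they are more frequent at summits of the whole list than 500 bp away. CACTGAGA was at 5.22% of all summits and 0.584% of flanking windows, and at 2 of the 28, both in the ImpL2 window. CAGTGCAC was at none of the 28 (4.66% of all), TATTTTAA at 3 (8.63% of all), ACACTG at 4 (19.6% of all) and ACAGTG at 4 (21.1% of all). The core word of FOXO sites, TGTTTAC, was at 4.44% of all summits and 4.03% of flanking windows, and at 1 of the 28, the Thor promoter summit. A match of letters is not evidence of binding by any factor. The 3 sites shown are the CACTGAGA words at the strongest ImpL2 summit (chr3L:4228295-4228324, 65 bp from the summit) and at the summit near pav (chr3L:4242418-4242447, 95 bp away), and the FOXO word in the 5′ UTR of Thor (chr2L:3478518-3478546, 10 bp past a TSS). All are on the plus strand of RefSeq Release 6, with the word in capitals, reading as its reverse complement in the last 2. In the first, the word overlaps a GAGAG and an ACACTG.
ImpL2 intron: accacaaggtaCACTGAGAgaaaggattcg
ImpL2 flank: gcggaaaatttTCTCAGTGctaaagtttaa
Thor: acgcagtttgtGTAAACAatcaaattgtc

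Beyond the 9 genes, a list of 51 other genes of the pathway was examined for summits within 1000 bp of a TSS. The list was drawn up by role, with the earlier results in view. Such a summit was found at 13 of the 51 (25.5%), against 21.1% of all protein-coding genes, so the wider pathway was close to the background. All 13 summits lay upstream of the TSS. The share upstream among TSS summits of all genes was not computed, so this is not read as a trait of the pathway. Of the 13, 11 were in the thresholded lists of both replicates, and those of RpS6 and Atg13 were in neither. Over the whole conservative list the share in both was 57.5%, but that covers summits of any place and signal. For a single TSS summit per gene over all genes the share was not computed. The count of 11 is therefore not read as better replicate support in the pathway. Whether any of these 13 summits lies nearer to a TSS of a neighbouring gene was not examined. They are listed below by distance to the pathway gene alone.

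By signal, the wider genes were led by Sesn, whose product sestrin restrains TOR when amino acids are scarce, with 904 at 227 bp upstream. REPTOR, a transcription factor released when TOR activity falls, followed with 683 at 165 bp, and sgg, the fly GSK-3 kinase, with 606 at 196 bp. Pi3K21B, the regulatory partner of Pi3K92E, had 401 at 81 bp. These 4 summits, and that of Lkb1, the kinase that activates AMPK, with 322 at 237 bp, were stronger than any TSS summit of the 9 genes.

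The other wider genes with a TSS summit had lower signals. The gene melt, which modulates foxo and TOR, had 216 at 248 bp. Rheb, the small GTPase that activates TOR, had 179 at 152 bp. In the amino acid branch, Iml1 had 132 at 268 bp and RagA-B 130 at 511 bp. In the TOR complexes, Sin1 had 132 at 68 bp and raptor 84.9 at 824 bp. The weakest were the ribosomal protein gene RpS6 with 74.97 at 20 bp and the autophagy gene Atg13 with 65.2 at 327 bp.

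Split by role, none of Ilp1 to Ilp8 or the binding protein gene Sdr, which is 0 of 9, had a TSS summit. Over all protein-coding genes the share was 21.1%. Ilp1 to Ilp5 have the same nearest summit, at 9812513 on arm 3L, so their distances are not separate observations. Between receptor and PI3K the count was 1 of 5 and among modulators of Akt and foxo 2 of 4. In the TSC and Rheb step it was 1 of 5, and in the TOR complexes 2 of 5. In the amino acid branch it was 3 of 10, in the energy branch 1 of 2 and among TOR outputs 3 of 11. These groups are too small for their order to be read. The 38 genes without such a summit had their nearest summit 1303 bp (RagC-D) to 171581 bp (Mitf) from a TSS.

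**Figure D4:**
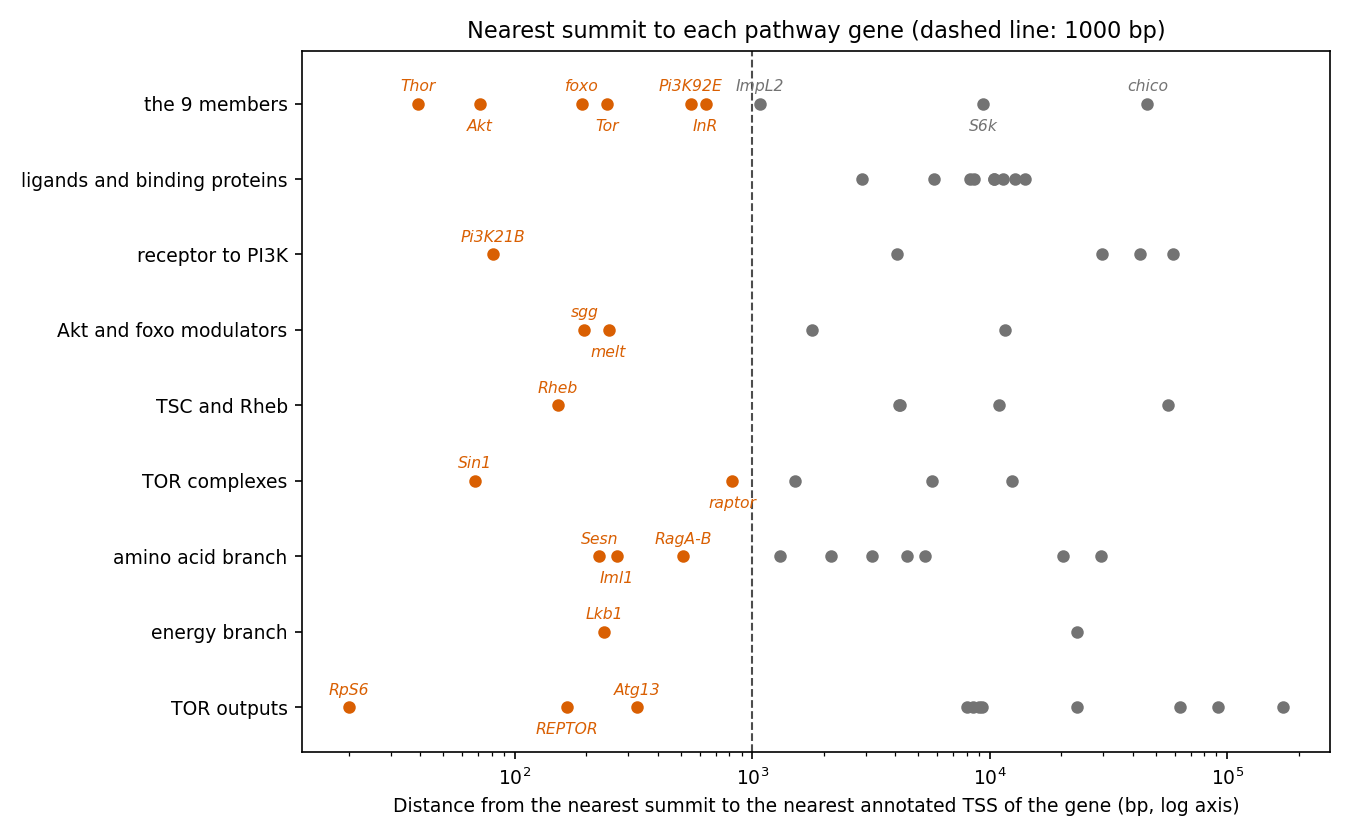
Distance (bp, log axis) from the nearest annotated TSS to the nearest conservative summit for the 9 genes (top row) and the 51 other pathway genes by role; orange marks genes within 1000 bp (dashed line), which are named, and grey the rest, named in the top row only. Of the 9 genes 6 are left of the line, of the 51 others 13, and none of the 9 ligands and binding proteins is. Ilp1 to Ilp5 share the same nearest summit.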

How the data were processed

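Peak lists in narrowPeak format on dm6 were used as deposited. Per the file listings, the authors derived the conservative list (5202 peaks), a longer thresholded list (5643) and a ranked list (119200) from both replicates, and thresholded and ranked lists from each replicate (4751 and 101511 for replicate 1, 3485 and 106775 for replicate 2). No source used here gives the aligner, the peak caller or how reads matching several places were treated. Signal is the value deposited by the authors for each peak, with no stated normalisation. The deposited score is a whole number derived from the IDR, at least 830 in thresholded lists, and the deposited summit offset gives the summit. Depth is unknown, so no interval is given. The control experiment that the labels name was not used here.

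The 9 genes and the gene lists were chosen with earlier results of these data known. The gene models were those of BDGP 6.54 in Ensembl release 115, and bases were read from RefSeq Release 6; all 9 genes and 51 wider genes matched, Tor through its current symbol mTor. Coordinates are 1-based, on the X, chromosome 4 and the arms of chromosomes 2 and 3 (5133 conservative peaks). A summit counted for a gene in its body or within 10 kb, and at a TSS within 1000 bp of any annotated TSS. A replicate matched when its summit lay within 100 bp. Named genes were all 9, the wider genes with a TSS summit, and the neighbours nearer to a summit. Gene calls were tested on simulated data. Scripts ran in Python 3.11.15 with pandas 2.3.3, numpy 2.4.6 and scipy 1.17.1, and matplotlib 3.10.9 drew the figures. Alternatives were other lists, single replicates, windows, distances and match limits; putting back the ranked peaks that reach the score was chosen after seeing the data. The design has 1 group, so nothing was compared between conditions.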

Additional observations from a re-analysis of the deposited data

How the results depend on the processing

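The number of genes with a summit in their window stayed at 6 to 8 of 9 under every list and window tried, while the share of all genes ranged from 4879 of 13945 genes (windows of 2000 bp) to 67.3% (longer list). With peaks above the list's median signal alone, the summits fell from 28 to 14 and the genes with a TSS summit from 6 to 3 (InR, Pi3K92E and Tor), while the share of all genes with a TSS summit fell to 13.9%. With windows of 2000 bp to each side, 16 summits were left. In the ranked lists, 27 summits were matched in both replicates in place of 16. With single replicates, the windows held 21 to 25 summits, in 7 to 8 genes, where 52.7% and 62.4% of all genes had one. TSS summits were found at 4 to 6 of the 9 genes: replicate 2 alone had none at Akt or foxo, where 16.1% of all genes had one. With 1 TSS per gene it was 5, without InR (19.2% of all genes), with 500 bp 4, without InR and Pi3K92E (17.8%), and with 2000 bp 7, with ImpL2 added (26.9%). The wider count of 13 ranged from 10 to 16. Of 45 counts for single genes, 35 stayed within 1.5 times and 10 did not. Without replicate 1, InR went from 4 to 1 and S6k from 2 to 0; without replicate 2, Tor and S6k went from 2 to 1 and Pi3K92E from 1 to 2. No paired analysis was possible because there was only 1 group. Precision is limited by 2 replicates, an unknown depth and the lack of a control library among the data used here.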
